A study of Mus musculus with 2 samples.

Results

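Tg7 islet cells that carried insulin and pancreatic polypeptide mRNA together were 59 of 1006 cells that passed the barcode filter in the Tg7 library. They are called insulin/Ppy cells here. A barcode was a member if it held at least 1000 unique molecular identifiers (UMIs, counted transcript molecules), at most 20% mitochondrial UMIs, at least 5% of its UMIs from Ins1 plus Ins2 and at least 1% from Ppy, with Gcg under 4% and Sst under 0.3%. The members were thus chosen by their measured shares of insulin, Ppy, Gcg and Sst UMIs, and these are given only as a description. The data are single-cell transcriptomes, made with 10x Genomics droplets, of pancreatic islets from 12-week-old male C57Bl6 mice, with 1 Tg7 library and 1 Wild-type library from littermates. Tg7 mice overexpress miR-7a2 in β-cells and are a mouse model in which β-cells dedifferentiate. Per the study's methods, mice of both genotypes carried a tdTomato reporter behind a floxed stop at Rosa26, switched on by a Cre driven from the rat insulin promoter, so both libraries share these alleles. How many mice gave each library is not stated in those sources. The insulin/Ppy cells were compared with 492 Tg7 insulin cells (the same limits, but Ppy under 1%) and with 24 Tg7 Ppy cells without insulin (Ppy at least 1%, insulin under 5%). The same gates held 2, 471 and 10 Wild-type cells among 755. With 1 library a group no test was possible, no difference has a replicate check, and library and genotype cannot be told apart. Intervals in brackets are 95% intervals for counting error only.

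Pancreatic polypeptide is the hormone of γ-cells, the scarcest of the main islet endocrine cells and the ones richest in the head of the pancreas. It belongs to the neuropeptide Y family with peptide YY, and the genes of both, Ppy and Pyy, are neighbours on mouse chromosome 11. Mature β-cells make insulin and islet amyloid polypeptide (Iapp) and normally keep the hormones of other islet cells very low. MicroRNAs such as miR-7 pair with messenger RNAs mainly through their seed. The mature sequence of the overexpressed microRNA is shown because it defines the Tg7 model, with the seed (bases 2 to 8) in capitals. It is from RefSeq and lies at chr7:78888295-78888317 on the plus strand of GRCm38.p6.
mmu-miR-7a-5p: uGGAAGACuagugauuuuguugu
Mature miR-7 is not a feature of the matrices, so its level could not be read in the insulin/Ppy cells. In the same build Ppy lies at chr11:102099931-102101319 and Pyy at chr11:102106676-102107832, with 5356 bases between them.

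Insulin/Ppy cells made up 5.86% of Tg7 cells (4.49 to 7.50), 10.7% of the 551 Tg7 cells in both insulin gates (8.25 to 13.6) and 71.1% of the 83 Tg7 cells in both Ppy gates (60.1 to 80.5). The Wild-type library held 2 such cells, or 0.265% of its cells (0.0321 to 0.954), 0.423% of 473 insulin cells and 2 of 12 Ppy cells. A further 34 Tg7 and 6 Wild-type cells met the insulin and Ppy limits but lay above a limit for Gcg (18 and 3) or Sst (20 and 6). Tg7 cells in the insulin gates ran without a gap in Ppy from 0 upwards. The members closest to the limit held 1.09%, 1.16% and 1.17% Ppy and the cells just outside 0.905%, 0.875% and 0.863%. Of the members, 24 held 1 to 3% Ppy, 24 held 3 to 10% and 11 held 10% or more. Among the 492 insulin cells, 62 held 0.1 to 1% Ppy, 314 held under 0.01% and 124 had no Ppy UMI. Free RNA gives a measure of the background. In 22 Tg7 macrophage-like and 9 endothelial-like cells the median Ppy share was 0, with the highest cell at 0.0354% and 0.0164%. Cells with at least 1% Ppy were left out of these groups beforehand, so none could lie above the limit.

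**Figure D1:**
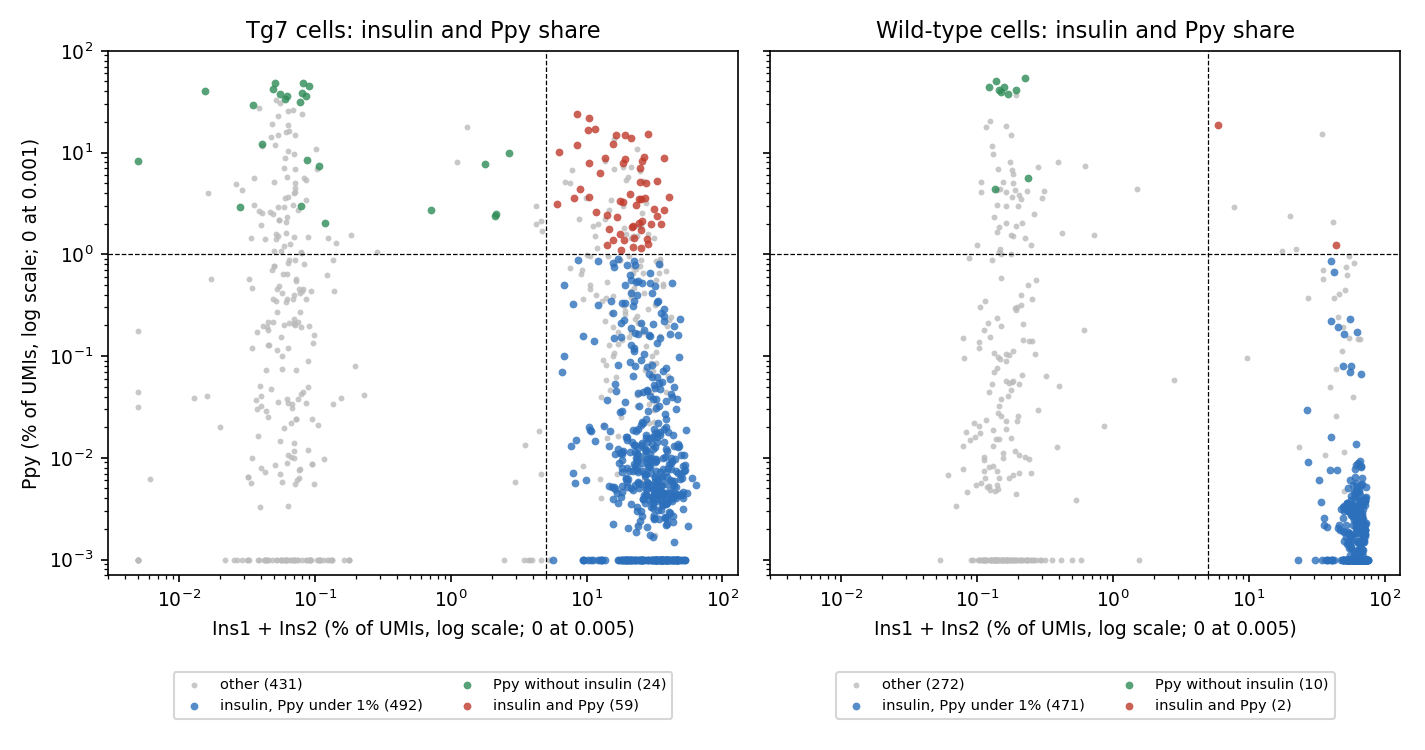
Share of UMIs from Ins1 plus Ins2 (x axis, %, log scale, 0 drawn at 0.005) against that from Ppy (y axis, %, log scale, 0 drawn at 0.001) in each Tg7 cell (left) and Wild-type cell (right). Dashed lines are the 5% insulin and 1% Ppy limits, and grey cells are outside all 3 gates; 59 red cells fill the upper right of the Tg7 panel and 2 that of the Wild-type panel.

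The rule required both hormones of the insulin/Ppy cells, and their medians lay below those of the insulin cells for insulin and of the Ppy cells for Ppy. Insulin took a median of 20.9% of their UMIs (lowest 6.10%, highest 40.4%), against 29.9% in Tg7 insulin cells and 0.0796% in Tg7 Ppy cells. Ppy took a median of 3.53% (1.09% to 23.6%), against 20.8% in the Ppy cells. Ins1 gave 4.99% of the insulin UMIs at the median, close to 5.15% in Tg7 insulin cells and far under 30.1% in Wild-type insulin cells. Ins1 and Ins2 are close copies, so reads shared between them are a limit on this split. Iapp, the peptide stored with insulin and no part of the rule, took a median of 11.4% (2.58% to 21.9%), beside 13.0% in Tg7 insulin cells and 4.66% in Wild-type insulin cells. These are shares of all UMIs. Insulin took a median of 64.1% in Wild-type insulin cells, which leaves less room for Iapp there. All 59 members held more Iapp than the highest (0.672%) of the 12 Ppy cells whose Ppy share was at least 20%. Over all 24 Ppy cells the median was 0.0736% and the highest 15.1%, so that gate as a whole overlapped the members. Gcg was low, with a median of 0.0155%, but 13 of 59 members held at least 0.1% (22.0%) against 35 of 492 insulin cells (7.11%). Sst had no UMI in 36 members and reached 0.1% in 4.

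Pyy, also not used by the rule, ran from 0 to 13.6% of UMIs with a median of 0.893%. It was at 0 in 8 members, at or above 1% in 28 and above Ppy in 4. In Tg7 insulin cells the median was 0.00151%, with 238 of 492 cells at 0 and 3 at or above 1%, and in Tg7 Ppy cells it was 12.7% (0.162% to 27.9%). Pyy per Ppy had a median of 0.295 in the members and 0.601 in the Ppy cells. Among Ppy cells 1 cell was at 0.0135 and the next at 0.270, and 28 of 59 members lay below that second value. The members thus included cells with Ppy and Pyy in the proportion seen in Ppy cells and cells with Ppy and little Pyy. Across the 59 members Ppy and Pyy had a Spearman rho of 0.38, Ppy and insulin −0.26, Pyy and insulin −0.48, Pyy and Gcg 0.34, Ppy and UMIs per cell −0.40, and Pyy and UMIs per cell 0.32. These points share 1 library and, as shares of the same total, constrain each other, so they are a description.

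**Figure D2:**
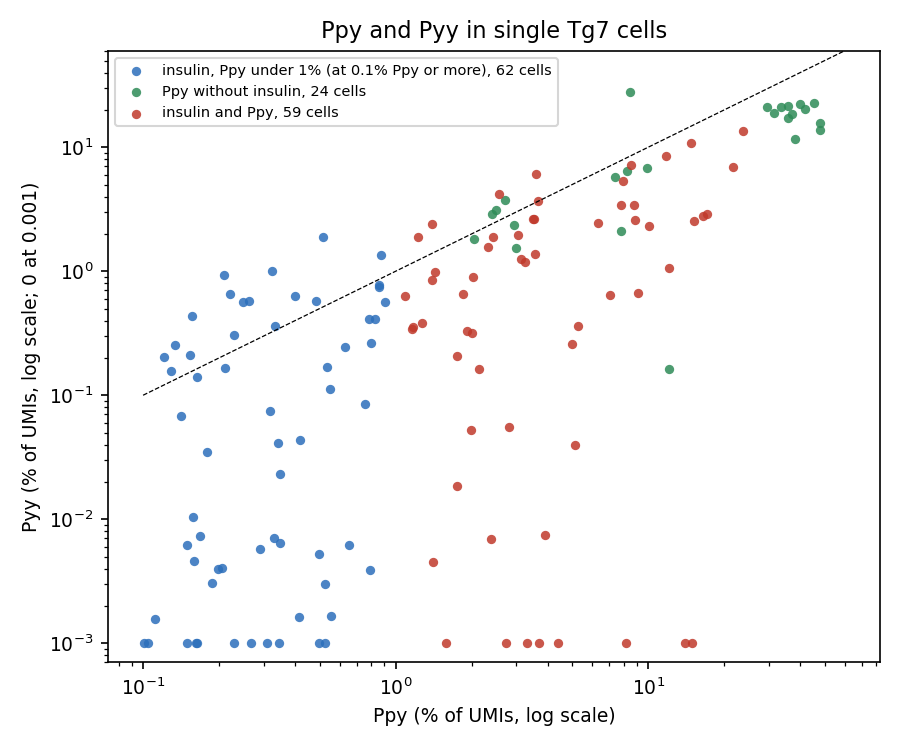
Ppy (x axis) against Pyy (y axis, 0 drawn at 0.001), both as % of UMIs on log scales, in 59 insulin/Ppy cells (red), 24 Ppy cells without insulin (green) and the 62 Tg7 insulin cells with at least 0.1% Ppy (blue). The dashed line marks equal shares; 8 red cells lie at no Pyy and 4 above the line.

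The members were deep barcodes. Their median was 40174 UMIs (6513 to 83152) and 5751 genes, against 27682 UMIs and 4201 genes in Tg7 insulin cells and 16573.5 UMIs and 2823 genes in Tg7 Ppy cells, and 44 of 59 lay above the median of the insulin cells. Scrublet, a doublet caller that was run as a check, called none of the members, none of the insulin cells and 2 of the Ppy cells, with median scores of 0.0217, 0.0153 and 0.0194. Whether 2 cells under 1 barcode had a part in these cells was not tested beyond these scores and the levels below. Markers of other cell types do not bear on an insulin cell and a Ppy cell under 1 barcode. All 17 α-cell markers had a UMI in the members, with a median summed level of 56.1 per 10000, against 56.7 in Tg7 insulin cells and 58.5 in Ppy cells. Of 14 δ-cell markers 5 had none, and the medians were 2.68, 2.06 and 2.73. Many markers of macrophages and of endothelial, acinar and stellate cells had no UMI in the members. Of 15 macrophage markers 9 had no UMI (Lyz2, C1qb and Ptprc among them) and the summed level ran from 0 to 1.49 per 10000, of 12 endothelial markers 9 (Plvap, Kdr and Esm1 among them), of 12 acinar markers 7 (Prss2 and Cpa1 among them) and of 12 stellate markers 9 (Col1a1 and Dcn among them). Of 10 ductal markers 3 had no UMI (Cftr, Mmp7 and Tff2), and their summed level was 0.831 at the lowest, 5.29 at the median and 58.97 at the highest per 10000 in the members, 0, 4.61 and 89.1 in Tg7 insulin cells and 0, 9.602 and 65.7 in Ppy cells, ranges that overlap. The Ppy cells without insulin were a mixed gate: 12 held 29.6 to 48.1% Ppy and at most 0.672% Iapp, the other 12 held 2.04 to 12.0% Ppy, and 8 of these held at least 3% Iapp. For the genes described below as furthest from the Ppy cells, values against the first 12 alone are given as well.

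Gene levels were compared as UMIs per 10000 UMIs of genes other than Ins1, Ins2, Iapp, Gcg, Sst, Ppy and Pyy, summed over the cells of a gate. The members had 1445716 such UMIs, the insulin cells 9140524 and the Ppy cells 215400. Outside the hormones, insulin/Ppy cells were close to other Tg7 insulin cells. Of 11906 genes with at least 20 UMIs over both gates, 232 (1.95%) were at least 2-fold higher in the members and 346 (2.91%) at least 2-fold lower, while 11328 lay within 2-fold, with a median log2 ratio of 0.01. A gene with no UMI in a gate was placed at its bound, the floor of 3 UMIs. Counting error alone moves low genes past 2-fold, and of 8914 genes with at least 100 UMIs 32 were higher and 53 lower by that much. Tspan8, known from γ-cells, and Fev were among the genes furthest above the insulin cells, and Dlk1 and the β-cell genes Mafa and Slc2a2 were among those below.

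Tspan8, a tetraspanin of the cell surface found in γ-cells, was 5.58-fold higher in the members than in Tg7 insulin cells (4.47 to 6.95). Its level was 1.09 per 10000 in the members, 0.195 in Tg7 insulin cells and 5.53 in Tg7 Ppy cells, from 157, 178 and 119 UMIs. Over single members the Tspan8 level ran from 0 through a median of 0.911 to 6.13 per 10000. A Tspan8 UMI was seen in 74.6% of the members, 16.9% of the insulin cells and 83.3% of the Ppy cells. Since members were deeper, cells were also thinned to 2000 UMIs, where the shares were 23.7% (13.6 to 36.6), 2.71% (1.45 to 4.60) and 58.3% (36.6 to 77.9), with 13 insulin cells left out as too shallow. No macrophage-like or endothelial-like Tg7 cell had a Tspan8 UMI. In Wild-type cells Tspan8 was seen in 17.6% of insulin cells and in all 10 Ppy cells. Over the alternatives tried, limits on depth and on Gcg included, the Tspan8 ratio ran from 4.48 to 11.3.

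Cd9, another tetraspanin, was 2.45-fold higher (1.81 to 3.29). Kcnk3, the potassium channel TASK-1, was 5.12-fold higher (3.41 to 7.66), and a UMI was seen in 42.4% of members, 7.32% of insulin cells and 58.3% of Ppy cells. After thinning the Kcnk3 shares were 3.39% (0.413 to 11.7) and 1.04% (0.340 to 2.42), too few cells to set the members apart. Fev, an ETS factor of endocrine progenitors, was 5.14-fold higher (2.27 to 11.4) on 13 UMIs in 18.6% of members. Lpl, lipoprotein lipase, was 2.86-fold higher (2.17 to 3.74), the scaffold gene Slc9a3r1 3.04-fold (2.13 to 4.29), the imprinted zinc finger gene Zim1 2.77-fold (1.92 to 3.95) and the chromatin remodelling ATPase gene Smarca1 2.60-fold (2.07 to 3.26). Pcdh15, a protocadherin, was 2.55-fold (1.62 to 3.91) and Olfm3, an olfactomedin, 3.16-fold higher (2.08 to 4.73). Fam159b was 2.74-fold higher (2.08 to 3.59). Cldn4, a tight junction claudin, was 2.51-fold higher (1.80 to 3.47) in all UMIs, but after thinning it was seen in 3.39% of members and 2.51% of insulin cells. In the 18 members and the insulin cells with at most 30000 UMIs, Cldn4 was at a ratio of 8.36 (4.43 to 15.4), Fam159b at 5.51 (3.04 to 9.64) and Zim1 at 4.59 (1.89 to 10.2), while Lpl was at 1.62 (0.624 to 3.58) on 7 UMIs and Olfm3 at 1.37 (0.266 to 4.43) on 3.

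The lists of islet cell genes place these genes. Of 14 measured α-cell genes 4 were at least 2-fold higher and none lower, Fev, Smarca1 and Gria3 (an AMPA receptor subunit, 2.07-fold) among the former, with a median log2 ratio of 0.46. The γ-cell list had 11 measured genes, of which only Tspan8 passed 2-fold, with a median of 0.23. Etv1, an ETS factor of that list, was 1.52-fold higher (1.35 to 1.70), Isl1, a LIM homeobox factor of all islet endocrine cells, 1.40-fold (1.24 to 1.57) and Meis2 1.34-fold (1.20 to 1.49). Of 26 β-cell genes 1 was at least 2-fold higher (Ucn3) and 2 lower (Mafa and Slc2a2), with a median of 0.10. The β-cell factor genes Pdx1 (0.894, 0.667 to 1.18), Nkx6-1 (1.18, 1.05 to 1.33), Neurod1 (1.02, 0.883 to 1.18), Nkx2-2 (1.38, 1.18 to 1.60) and Pax6 (1.18, 1.08 to 1.30) all had ratios within 2-fold. Of 6 δ-cell genes none was 2-fold higher and 1 lower, with a median of 0.00, and both measured ε-cell genes lay within 2-fold.

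Among genes seen in at least 10% of the cells of 1 gate, the one furthest below the insulin cells was Dlk1, an imprinted Notch-ligand-like gene, which was 6.93-fold lower (4.41 to 11.6). It was seen in 6 of 59 members (10.2%) and in 142 of 492 insulin cells (28.9%), and 12 of its 19 UMIs came from 1 member. After thinning, Dlk1 was seen in 0 of 59 members, which allows up to 5.08%, and in 10.4% of insulin cells. Arhgap36 was 4.11-fold lower (1.96 to 10.4) on 7 UMIs and Mgarp 4.11-fold lower (1.56 to 15.4) on 4. The secreted protein gene Cthrc1 had a ratio of 0.346 (0.214 to 0.531), the tubulin gene Tubb3 0.351 (0.212 to 0.551), Ccdc160 0.369 (0.145 to 0.784), the proteoglycan gene Cspg5 0.378 (0.149 to 0.804), the integrin gene Itgb3 0.379 (0.136 to 0.855), the sorting receptor gene Sorl1 0.381 (0.223 to 0.612) and Akap10 0.391 (0.140 to 0.883). Mafa, which drives β-cell maturation, was at 0.454 of the insulin cell level (0.250 to 0.766) and Slc2a2, the glucose transporter GLUT2, at 0.475 (0.325 to 0.673). Of 16 cell cycle genes 7 were at least 2-fold lower with a median of −0.77, beside 346 of all 11906 measured genes (2.91%). Cenpf, a kinetochore protein gene, had no UMI in the members and 108 in only 7 of the insulin cells. Its absence from 59 members therefore says little. Stmn1, the microtubule regulator stathmin, had 1 UMI in the members and 239 in 33 insulin cells.

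**Figure D3:**
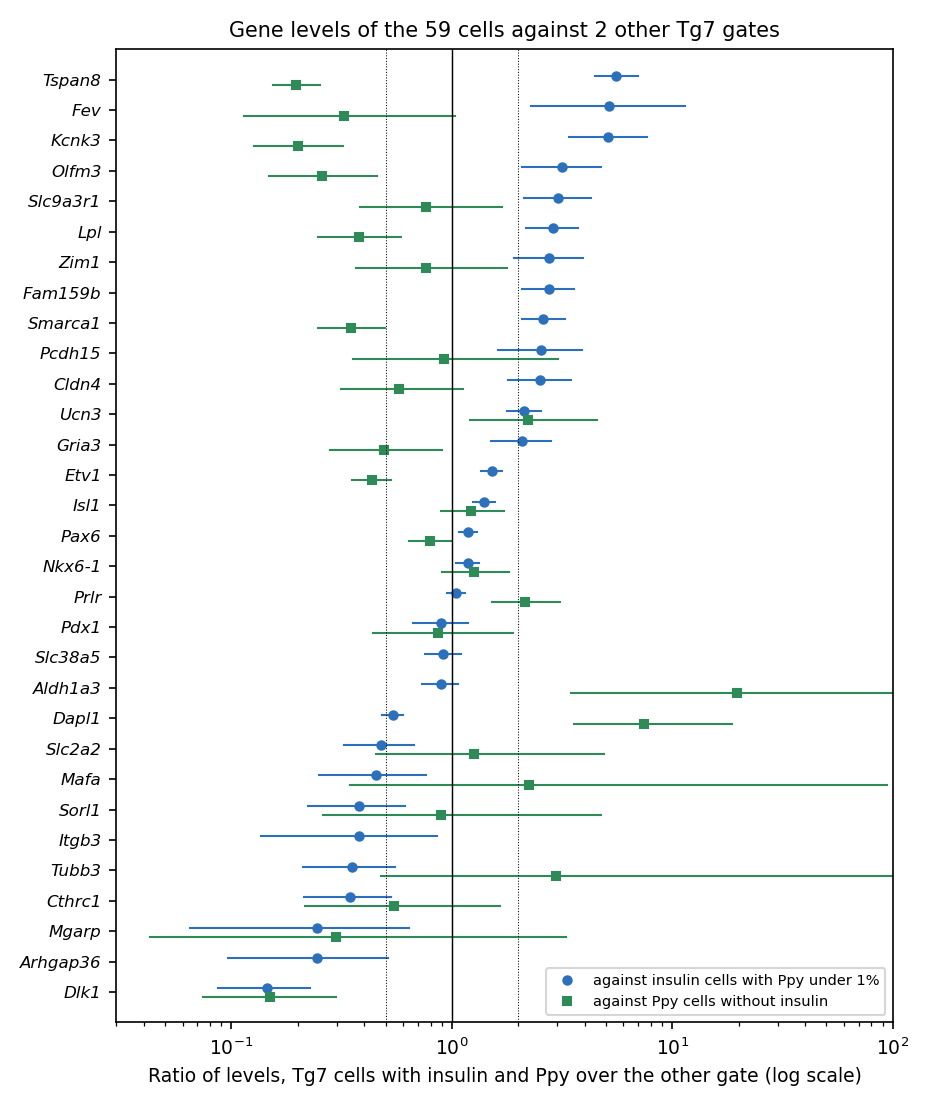
Ratio of the level in 59 insulin/Ppy cells over that in 492 Tg7 insulin cells (blue circles) and in 24 Tg7 Ppy cells without insulin (green squares, absent where the Ppy cells had no UMI) on a log axis, with 95% counting intervals cut at 100. Solid and dotted lines mark equal levels and 2-fold; Tspan8, Kcnk3 and Olfm3 lie above the insulin cells and below the Ppy cells, and Dlk1 below both.

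Tspan8 was higher where the Ppy share was higher within Tg7 insulin cells, on both sides of the 1% limit. The bins were chosen after the values were seen. Tspan8 had a level of 0.129 per 10000 in the 314 insulin cells with Ppy under 0.01% (37 cells with a UMI), 0.175 in 116 cells at 0.01 to 0.1% (24 cells) and 0.422 in 62 cells at 0.1 to 1% (22 cells). In the members Tspan8 was at 0.689 in 24 cells at 1 to 3% Ppy, 1.21 in 24 cells at 3 to 10% and 2.28 in 11 cells at 10% or more, with 17, 17 and 10 cells holding a UMI. Lpl ran in the same order through 0.141, 0.216 and 0.332 in the insulin cells to 0.510, 0.542 and 0.814 in the members. The 62 insulin cells just under the Ppy limit thus stood between the other insulin cells and the members in both genes. Their median of 44519 UMIs per cell was near the 49482, 36814.5 and 34391 of the member bins and above the 24930 and 29804 of the bins with less Ppy.

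Other genes had other shapes over the same bins. Cd9 was at 0.151, 0.155 and 0.307 in the insulin cells and at 0.276, 0.374 and 1.30 in the members, so most of its difference lay in the 11 cells richest in Ppy. Ucn3, urocortin 3, a peptide of mature β-cells, was already at 1.24 in the 62 cells with 0.1 to 1% Ppy, above 0.330 and 0.468 in the cells with less, and at 1.31, 0.803 and 1.41 in the members. Mafa was at 0.239, 0.204 and 0.235 in the insulin cells and at 0.138, 0.0747 and 0.0542 in the members, the last from 1 UMI. Prlr, the prolactin receptor gene, was even, at 3.28, 3.68 and 3.45 in insulin cells and 3.69, 3.87 and 2.33 in members. Aldh1a3, a retinaldehyde dehydrogenase gene used as a mark of dedifferentiated β-cells, was at 1.11, 0.896 and 0.965 in the insulin cells and at 0.992 and 1.10 in members up to 10% Ppy, but had 1 UMI in the 11 members above that (0.0542).

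**Figure D4:**
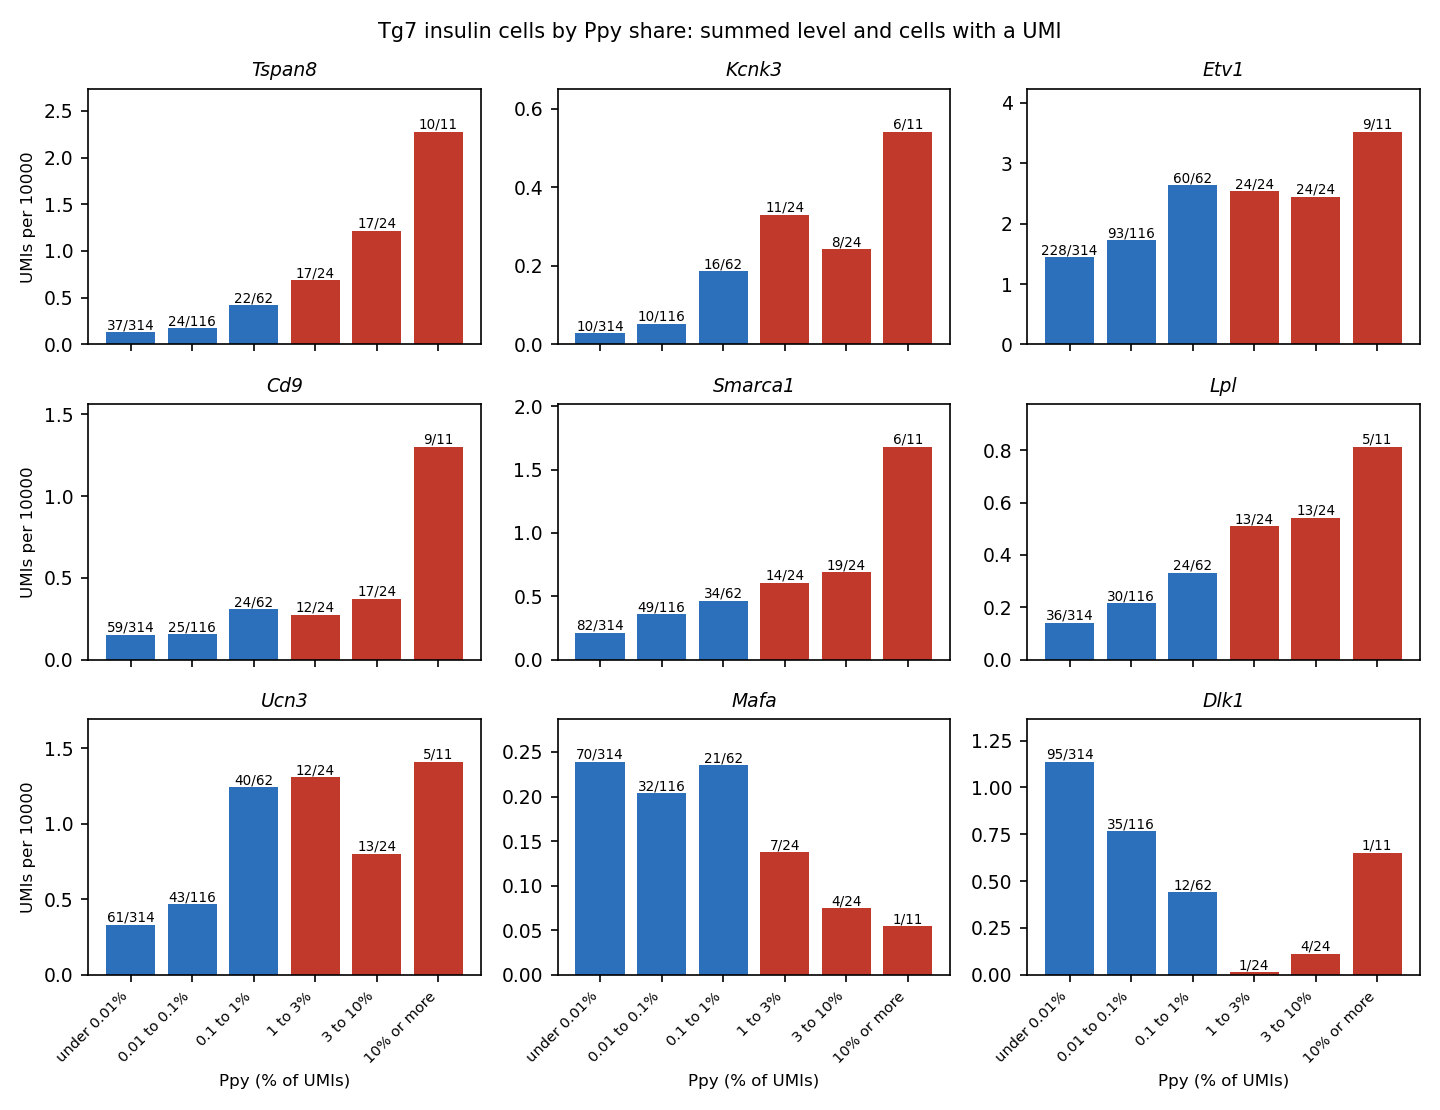
Summed level (bars, UMIs per 10000 non-hormone UMIs) of 9 genes in Tg7 insulin cells binned by Ppy share (x axis, % of UMIs), with Ppy under 1% in blue and insulin/Ppy cells in red; the fraction over a bar is the cells with a UMI over all cells of the bin. Tspan8 and Lpl are highest in the 11 cells with at least 10% Ppy, Mafa lowest there, and Ucn3 is high from 0.1% Ppy on.

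A UMI of Tspan8, Kcnk3 or Lpl was seen more often in members with more Pyy, but the members with least Pyy were shallower. Split by Pyy, a split chosen after the values were seen, Tspan8 was seen in 6 of 15 members with Pyy under 0.1%, in 12 of 16 at 0.1 to 1% and in 26 of 28 at 1% or more (40%, 75% and 92.9%). The median depth of the middle and upper groups was alike, 45323.5 and 44870 UMIs, and that of the lower group was 20375. Kcnk3 was seen in 13.3%, 37.5% and 60.7% of these groups, Lpl in 13.3%, 56.2% and 71.4%, Fev in 0, 2 and 9 cells, and Irx2, a homeobox gene of α-cells, which was named after its values were seen, in 0, 1 and 8 cells. Scaled to depth, Tspan8 was at 0.69, 0.751 and 1.40 per 10000, Kcnk3 at 0.184, 0.2145 and 0.433 and Lpl at 0.276, 0.4075 and 0.735. Ucn3 and Aldh1a3 were lowest in the upper group: Ucn3 was at a level of 1.75, 2.06 and 0.394 per 10000 and Aldh1a3 at 1.65, 1.35 and 0.433. A Ucn3 UMI was seen in 60%, 68.8% and 35.7% of the groups and an Aldh1a3 UMI in 46.7%, 68.8% and 35.7%. Isl1 was seen in 93.3%, 93.8% and 92.9% of the groups. The 28 members with at least 1% Pyy thus had the highest Tspan8 level, and 26 of them held a UMI. The part of depth in the lower shares of the group with least Pyy was not tested.

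Against the Tg7 Ppy cells without insulin more genes lay past 2-fold than against insulin cells, in a gate of 24 cells and far fewer UMIs. Of 8331 measured genes 1012 (12.1%) were at least 2-fold higher in the members and 318 (3.82%) lower, with a median log2 ratio of 0.12. Aldh1a3 was 19.7-fold higher (3.47 to 783) on 132 UMIs in the members and 1 in the Ppy cells, Oard1, an ADP-ribose hydrolase gene, 14.8-fold (2.59 to 588), Dapl1 7.47-fold (3.59 to 18.7) and Cartpt, the CART peptide gene, 7.30-fold (2.45 to 35.8). Slc38a5, an amino acid transporter gene, had no UMI in the Ppy cells and 133 in the members, at least 6.60-fold higher from a floor of 3 UMIs. Of 23 β-cell genes 7 were higher by 2-fold and none lower (median 0.39), G6pc2 and Ero1lb among them. Of 11 α-cell genes 1 was higher and 5 lower (median −0.94), and of 7 γ-cell genes 1 was higher (Cartpt) and 3 lower (Tspan8, Etv1 and Fxyd3; median −0.10). Tspan8 was at 0.197 of the level of the Ppy cells (0.154 to 0.252), Cd9 at 0.195 (0.132 to 0.288), Ifitm2 at 0.190 (0.126 to 0.288) and the small heat shock protein gene Hspb1 at 0.130 (0.0879 to 0.190). Against the 12 Ppy cells with at least 20% Ppy, Tspan8 was at 0.119 (0.0916 to 0.156), Cd9 at 0.125 (0.0821 to 0.194), Ifitm2 at 0.158 (0.0970 to 0.264) and Hspb1 at 0.0748 (0.0498 to 0.112). Of the genes above, Dapl1 was at 24.8 (4.42 to 981) and Oard1 at 6.98 (1.23 to 279) on 1 UMI each in these 12 cells, which had no UMI of Aldh1a3, Cartpt, Slc38a5 or G6pc2, so that Aldh1a3 was at least 3.10-fold and Cartpt at least 3.46-fold higher. These ratios on few UMIs moved with the limits of the gates. With an insulin limit of 10%, Oard1 was at 2.58 (1.30 to 5.82) and Dapl1 at 2.79 (1.92 to 4.197). In cells of at least 20000 UMIs, where the Ppy cells had no Oard1 or Aldh1a3 UMI, Oard1 was at least 2.05-fold and Aldh1a3 at least 2.82-fold higher, Dapl1 was at 3.63 (1.65 to 9.97), Cd9 at 0.433 (0.213 to 0.993) and Hspb1 at 0.0747 (0.0492 to 0.113). In cells of at most 30000 UMIs Cartpt was at 2.16 (0.493 to 12.9). Gast, gastrin, had the lowest ratio, 0.00398, but 1558 of the 1646 Gast UMIs of the Ppy cells came from 1 cell, and the 12 cells with at least 20% Ppy had none.

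For genes that differ strongly between insulin cells and Ppy cells, the place of the members between them was read as the percentage of the way from the insulin cell level (0%) to the Ppy cell level (100%). The genes were taken from the comparison of these other gates, without the members. Against the 12 Ppy cells with at least 20% Ppy, 12 genes of the Ppy side (Tspan8, Cd9, Etv1, Hspb1 and Spp1 among them) had a median of 8.91% (0.947% to 24.3%), and Ppy itself was at 9.44% and Pyy at 7.48%. The 14 genes of the insulin side had a median of 15.2% (−5.97% to 47.0%). Prlr and Enho (chosen, as were the others named here, after their values were seen), the latter the gene of the secreted peptide adropin, had no UMI in these 12 Ppy cells and were seen in all 59 members. Prlr stood at 3.58 per 10000 in the members and 3.42 in the insulin cells, and Enho at 6.22 and 7.02, at least 12.2-fold and 21.1-fold higher than in these Ppy cells. Rgs2 and Fxyd6 were also slightly past the insulin cell level, at −5.97% and −5.50%. Of the 14 genes, Dapl1 at 47.0%, Creld2 at 42.9% and Nucb2 at 34.1% were furthest from it, and the hormone genes Ins1 and Ins2 were at 37.9% and 34.6%. Ppy, Ins1 and Ins2 were used to choose the members, so their places follow in part from the rule. Against all 24 Ppy cells 16 genes of the Ppy side had a median of 11.7% and 7 of the insulin side 43.0%.

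Few genes lay at least 2-fold outside the range of both gates. Of 8325 genes measured in both comparisons 3893 (46.8%) had a level between those of the gates, 9 (0.108%) were at least 2-fold above both and 2 (0.024%) at least 2-fold below both. Those above were Hps3, Mcm9, Csrp2, Zfp1, Ucn3, Fam159b, Tfrc, T2 and Rell2, and those below Agt and Dlk1. All 19 Dlk1 UMIs of the Ppy gate came from cells with under 20% Ppy. The 12 cells with at least 20% Ppy had none, so Dlk1 was not seen to be below these 12. Only Ucn3 rested on more than 100 UMIs in the members, 164, and was 2.13-fold above the insulin cells (1.77 to 2.55) and 2.22-fold above the Ppy cells (1.21 to 4.54). Against the 12 Ppy cells with at least 20% Ppy, which had 1 Ucn3 UMI, the ratio was 11.6 (2.05 to 459.8). A Ucn3 UMI was seen in 50.8% of members, 29.3% of insulin cells and 25% of Ppy cells, and after thinning in 16.9% (8.44 to 29.0), 8.77% (6.39 to 11.7) and 8.33% (1.03 to 27.0), intervals that overlap.

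The members held the low β-cell programme of Tg7 insulin cells. Against Wild-type insulin cells 818 of 11454 genes (7.14%) were at least 2-fold higher in the members and 850 (7.42%) lower. Of 28 measured β-cell genes 19 were at least 2-fold lower and none higher, with a median log2 ratio of −1.37, where the Tg7 insulin cells had 20 and −1.36. Mafa stood at 5.54 per 10000 in Wild-type insulin cells, 0.229 in Tg7 insulin cells and 0.104 in the members, which were 53.4-fold lower than Wild-type (32.3 to 95.5). Slc2a2 was at 5.69, 0.496 and 0.235, G6pc2, a glucose-6-phosphatase gene of β-cells, at 20.4, 2.60 and 1.78, and Ero1lb, an oxidase for disulfide formation in the endoplasmic reticulum, at 24.1, 2.02 and 2.13. Ucn3 was at 7.36, 0.533 and 1.13, so the members lay 6.48-fold below Wild-type (5.55 to 7.62) and the other Tg7 insulin cells 13.8-fold. Pdx1 was at 1.04, 0.449 and 0.401, Nkx6-1 at 4.66, 1.89 and 2.23, and Pax6 at 4.47, 3.09 and 3.65.

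Genes that set Tg7 insulin cells apart from Wild-type were also present in the members. Of 11 immature and progenitor genes 8 were at least 2-fold higher than in Wild-type insulin cells and 1 lower, with a median of 1.83. Aldh1a3 was at 0.257 in Wild-type insulin cells, 1.03 in Tg7 insulin cells and 0.913 in the members. Slc38a5 was at 0.0360, 1.01 and 0.920, Serpine2, an extracellular protease inhibitor gene, at 0.00496, 0.724 and 0.560, and Cartpt at 0.0471, 1.60 and 1.02. In Tg7 Ppy cells Aldh1a3 had 1 UMI and Slc38a5 none, and Serpine2 was at 0.325 and Cartpt at 0.139. Of 12 genes of the epithelial-to-mesenchymal transition 4 were higher and 2 lower than in Wild-type insulin cells (median 0.82), and of 22 epithelial genes none was higher and 8 lower (median −0.81). Against Tg7 insulin cells these lists were near even: of 12 mesenchymal genes none was higher and 1 lower (Itgb3, median −0.01), and 2 of 19 epithelial genes were higher (Ehf and Cldn4) and 1 lower (Ovol2, median 0.11). The calls of Ehf and Ovol2 rested on few UMIs in the members, so both are uncertain. Of 12 immature genes 1 was higher and 1 lower (Fev and Dlk1, median −0.14). Against Wild-type the library and the genotype cannot be told apart.

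**Figure D5:**
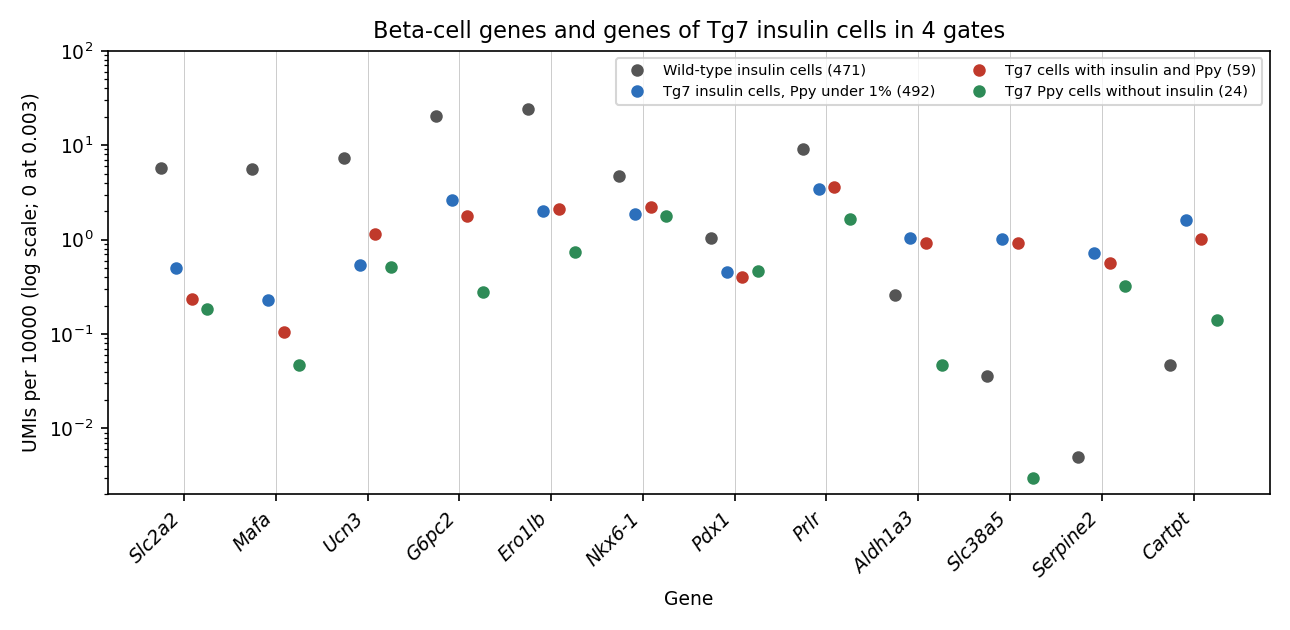
Summed level (y axis, UMIs per 10000 non-hormone UMIs, log scale, 0 drawn at 0.003) of 12 genes (x axis) in Wild-type insulin cells (grey), Tg7 insulin cells (blue), insulin/Ppy cells (red) and Tg7 Ppy cells (green). For Slc2a2, Mafa, G6pc2 and Ero1lb the red and blue points lie far below the grey ones, and for Aldh1a3, Slc38a5, Serpine2 and Cartpt they lie above them.

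The tdTomato reporter, which marks cells with a history of insulin promoter activity and was not used by the rule, was found in the members. It had 24 UMIs in 18 of 59 members (30.5%), and a UMI was seen in 31.1% of Tg7 insulin cells and 53.1% of Wild-type insulin cells. After thinning, tdTomato was seen in 10.2% of members (3.82 to 20.8) and 4.18% of Tg7 insulin cells (2.57 to 6.37). The level was 0.166 per 10000 in members and 0.223 in Tg7 insulin cells, a ratio of 0.744 (0.466 to 1.14). None of the 24 Tg7 Ppy cells had a tdTomato UMI, which limits the share of cells with a UMI, not of cells that express the gene, to 12.5%, and the level to 0.139 per 10000, so a level somewhat below that of the members could not have been seen. By Pyy group, tdTomato was seen in 5 of 15, 5 of 16 and 8 of 28 members.

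Most genes of peptides, secretion and metabolism lay within 2-fold of Tg7 insulin cells, as did 11328 of all 11906 measured genes (95.2%). Of 10 gut hormone and neuropeptide genes 1 was at least 2-fold higher (Ucn3) and 2 lower (Cck and the secretin gene Sct), with a median of −0.62. Cck, cholecystokinin, had 2 UMIs in the members, and 379 in only 11 of the insulin cells, 264 of them in 1 cell. Sct also had few UMIs in the members. Gast had a ratio of 0.524 (0.376 to 0.713) and Pdyn, prodynorphin, 0.703 (0.627 to 0.788). The receptors of the neuropeptide Y family, Npy1r, Npy2r, Npy4r, Npy5r and Npy6r, had no UMI in the members or the Ppy cells, and Npy1r had 2 in the insulin cells. Dpp4, the peptidase that trims these peptides, was the 1 measured gene of their receptor list, with a ratio of 1.14 (0.875 to 1.47). All 20 prohormone processing and granule genes lay within 2-fold, with a median of −0.04, and Chga, chromogranin A, stood at 115 per 10000 in the members, 86.2 in Tg7 insulin cells and 85.4 in Ppy cells. Of 18 glucose entry and coupling genes 1 was higher and 1 lower by 2-fold (the glucose transporter genes Slc2a1 and Slc2a2, median 0.14). The Slc2a1 call rested on few UMIs in the members. Of 24 genes of the unfolded protein response none passed 2-fold, but 19 had a lower level than in Tg7 insulin cells (median −0.31), Creld2 at 0.657 (0.579 to 0.743) and Dnajb11 at 0.645 (0.549 to 0.754) among them, while 20 of 23 were higher than in the Ppy cells (median 0.69). The members' insulin share was also lower than that of the insulin cells, and its part in this was not tested. Of 16 immediate early genes 1 was higher by 2-fold (Zfp36, an mRNA decay factor gene, 2.17, 1.63 to 2.85; median 0.15). Of 2 genes that β-cells normally keep low none passed 2-fold (median −0.67), and neither did any of the 3 measured ductal, 2 macrophage and 2 endothelial genes, while no acinar or stellate gene reached 20 UMIs.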

How the data were processed

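Islets of 1 Tg7 and 1 Wild-type library were measured by 10x Genomics single-cell RNA-seq. The authors deposited raw UMI counts per gene and barcode. Per the submitters' processing notes, bcl2fastq 2.17.1.14, Cell Ranger 3.0.2, STAR and the mm10 build were used, and no annotation version is stated. The study's methods state that doublets were removed with DoubletFinder, and whether the deposited matrices were made before that step is not known.

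The matrices held 31054 features, 1123 Tg7 and 855 Wild-type barcodes and 29931777 and 30829078 UMIs, with 0 barcodes shared. Of these 1006 and 755 passed (65 and 29 failed on UMIs, 100 and 98 on mitochondrial share). The gates, the members and the 21 gene lists were chosen with earlier results of these data known. Counts were summed over the cells of a gate, scaled to UMIs outside 7 hormone genes, and a gene was measured at 20 UMIs over the gates compared. With 1 library a group no test was run. Ratios have conditional exact binomial intervals and shares Clopper-Pearson intervals, both 95% and for counting error only, and a gene with 0 UMIs was bounded from 3 UMIs. PCR duplicates are collapsed by UMIs, but cells of 1 library are not replicates. Detection shares were also computed after each cell was thinned to 2000 UMIs. Doublets stayed in, and Scrublet (scanpy 1.11.5; 0.8% per 1000 barcodes) called 9 Tg7 and 8 Wild-type barcodes. Macrophage-like and endothelial-like cells were set by markers, among cells under the insulin, Ppy, Gcg and Sst limits.

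Named genes were a fixed set of hormones, islet factors and receptors, the 10 highest and 10 lowest ratios against insulin cells and 5 and 5 against Ppy cells (at least 100 UMIs and a UMI in at least 10% of the cells of the higher gate), genes outside both gates, and up to 6 of each list; others are said to be chosen after their values were seen or are named from a count. Alternatives changed the scaling (all UMIs; TMM from edgeR 4.0.16 in R 4.3.3), the minimum, the weight of cells, the filters and the limits. Python 3.11.15, numpy 2.4.6, pandas 2.3.3 and scipy 1.17.1 were used, and the steps were tested on simulated data. A few genes of the lists are not reported here.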

Additional observations from a re-analysis of the deposited data

How the results depend on the processing

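No paired analysis was possible because each group has 1 library, and for the same reason no replicate could be left out. The causes of the shifts below were not tested beyond the fewer cells or genes that an alternative leaves. The number of insulin/Ppy cells was 59 and became 35 with a Ppy limit of 3% and 18 with cells of at most 30000 UMIs, while it was 46 to 76 for the other limits and filters.

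Genes at least 2-fold higher than in Tg7 insulin cells (232) became 1093 with no minimum, 32 at 100 UMIs, 360 with each cell weighted equally, 377 with a Ppy limit of 3% and 559 in cells of at most 30000 UMIs. Genes lower (346) became 53, 534 and 923 at 100 UMIs, with equal weights and in cells of at most 30000 UMIs. Against Ppy cells, genes higher (1012) became 146 at 100 UMIs and 197 in cells of at most 30000 UMIs, and genes lower (318) became 1226 with no minimum, 30 at 100 UMIs, 615 in cells of at least 20000 UMIs, 166 in cells of at most 30000 and 652 against Ppy cells with at least 20% Ppy. Genes above both gates (9) became 14 with all UMIs, 18 with no minimum, 1 at 100 UMIs, 18 with equal weights, 22 in cells of at most 30000 UMIs and 4 with Ppy cells of at least 20% Ppy. Genes below both (2) became 149 with no minimum, 0 at 100 UMIs, 9 with equal weights, 1 and 7 with Ppy limits of 3% and 0.5%, 4 with an insulin limit of 10%, 5 and 27 in the deeper and shallower cells and 5 with Gcg under 0.1%. Where a gate was small, a gene with no UMI in it, placed at 3 UMIs, could be counted as higher there. This can add genes to the 377 higher and to the 615 and 652 lower. The limits by depth, Gcg and 20% Ppy were chosen after seeing the data.

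Gast against Ppy cells reversed to 3.78 with a Ppy limit of 3% and, from a floor of 3 UMIs, at least 1.03 with Ppy cells of at least 20% Ppy, which had no Gast UMI and leave out the cell rich in it. In cells of at most 30000 UMIs, the members left had no UMI of Arhgap36, Itgb3, Mgarp or Ccdc160. From a floor of 3 UMIs, Arhgap36 and Itgb3 against insulin cells were at most 1.37, Mgarp at most 0.890 and Ccdc160 at most 0.912. These are upper limits, and no reversal was seen in these genes. Over all alternatives the ratio against insulin cells was 4.48 to 11.3 for Tspan8, 3.85 to 11.5 for Kcnk3, 1.62 to 3.90 for Ucn3, 0.309 to 0.555 for Mafa, 0.148 to 0.505 for Slc2a2 and 0.0496 to 0.296 for Dlk1. In all 224 alternative values of the medians of lists with at least 3 measured genes and of the median over all genes, the log2 ratio stayed within 1.5-fold of the reported one. Depth limits genes with few UMIs in the Ppy cells most, where 3 UMIs are 0.139 per 10000.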

Other observations

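The 2 Wild-type cells with insulin and Ppy held 1.23% and 18.7% Ppy, 43.7% and 5.99% insulin and 49062 and 9474 UMIs in the same order, too few for a gene comparison.

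The 12 Tg7 Ppy cells without insulin whose Ppy share was under 20% differed among themselves. They had a median of 10763 UMIs, 5.21% Ppy, 3.02% Pyy and 4.90% Iapp, against 19077 UMIs, 37.7% Ppy, 19.7% Pyy and 0.0271% Iapp in the 12 cells with more Ppy. The highest of them held 2.67% insulin, under the 5% limit of the insulin gates. Macrophage markers reached 854 per 10000 non-hormone UMIs in 1 cell of the Ppy gate, where the highest insulin/Ppy cell had 1.49.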
